A study of Homo sapiens with 52 samples.

Results

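The genes described here encode proteins that hold endothelial cells to one another: the cadherins CDH5 and CDH2, the tight junction membrane proteins CLDN5 and OCLN, the junctional adhesion molecules F11R, JAM2 and JAM3, the related border proteins ESAM and PECAM1, and the scaffold TJP1. They were chosen by name, 10 of the 43290 gene symbols in the table, and their levels were read in 52 RNA-seq libraries of poly-A-selected RNA from 2 human endothelial lines. TeloHAEC come from aortic endothelium, were made immortal with telomerase and are grown in a medium that holds VEGF. Eahy926, a fusion of HUVEC with carcinoma cells of the lung, is grown in DMEM with serum. Parental cells of each line were left untreated, or were given IL-1β at 10 ng/ml or TNF-α at 10 ng/ml for 24 h, or had VEGF changed for 24 h: TeloHAEC were moved to medium without VEGF, and Eahy926 had VEGF added. Each of these 8 groups had 3 libraries, numbered 1.1 to 1.3, and each line had 2 more untreated libraries, numbered 0.1 and 0.2. The main fit left those 2 out, and they served as controls only where all 5 untreated libraries are named. A separate set of 24 libraries came from a sorted pool of TeloHAEC that make the repressor KRAB-dCas9 when given doxycycline (CRISPR interference, CRISPRi), which a guide RNA brings to a promoter. A lentivirus with blasticidin selection delivered 1 of 20 guides to 10 genes, 2 guides each, or 1 of 4 non-targeting guides. All of these cells, controls included, were kept in doxycycline at 2 µg/ml for 5 days.

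CDH5, known as VE-cadherin, forms the adherens junction of endothelium by binding the same molecule on the neighbouring cell and catenins inside. CLDN5 is the main claudin of endothelial tight junctions and seals the gap to small molecules, most tightly in brain vessels, and TJP1, known as ZO-1, ties tight junction proteins to actin. F11R (JAM-A), JAM2 (JAM-B) and JAM3 (JAM-C) are immunoglobulin-domain proteins that recruit polarity proteins and serve leukocyte passage, as does PECAM1. In endothelium CDH5 is known to allow CLDN5 transcription, and CDH2, N-cadherin, lies mostly outside the junction and binds mural cells.

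Levels are given as TPM, a library's share of transcripts scaled by transcript length, so that genes can be set beside each other. The depth behind these values is unknown, because TPM hold no read number. Differences were tested with limma on log2(TPM + 1), with Benjamini-Hochberg adjustment over all genes kept, and a gene was called at an adjusted p under 0.05. The log2 differences below are on that scale, which understates the change of low genes. In the parental set 9 members passed the filter of at least 1 TPM in at least 3 libraries, with JAM2 below it. In the CRISPRi set 9 passed the filter of at least 1 TPM in at least 2 libraries, with OCLN below it. The labels do not name separate cultures for the replicates, and p-values then measure only the spread between these libraries, which may be technical. In the CRISPRi set each library had its own guide, so the spread there also holds differences between guides.

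Some libraries stood apart. Untreated Eahy926 replicate 1.2 had a mean r of 0.987 with its own group over all genes, against 0.992 for the other replicates, and it was the lowest Eahy926 library for CDH5, CDH2, F11R, JAM3, TJP1 and OCLN. Results that use the untreated Eahy926 group are therefore given without it where they move. Untreated TeloHAEC 0.1 and 0.2 held CLDN5 at 33.7 and 32.6 TPM, against 2.86, 2.59 and 3.63 TPM in untreated 1.1 to 1.3. Of the CRISPRi libraries, the 2 guides against PDCD10 had an r of 0.958 with each other and those against MEF2A 0.9748, below the 0.989 to 0.990 of the non-targeting libraries. Of the endothelial markers VWF, KDR, TEK, TIE1, ERG, EGFL7, EMCN and ROBO4, untreated TeloHAEC had 8 of 8 at 1 TPM or more and untreated Eahy926 7 of 8, with EMCN listed at 0, and KDR at 2.57 ± 0.701 TPM (SD, n = 3) in untreated Eahy926.

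In untreated cells CDH5, CLDN5, ESAM, PECAM1, F11R and JAM3 were higher in TeloHAEC, and CDH2, TJP1 and OCLN were higher in Eahy926. All 9 tested members were called (6 higher and 3 lower in TeloHAEC), where 76.2% of all genes tested were called, so a call by itself says little between these lines. CLDN5 passed the filter only through TeloHAEC, with 0 TPM in Eahy926, and OCLN only through Eahy926, with at most 0.578 TPM in TeloHAEC. The calls of CLDN5 and OCLN between the lines are therefore not independent of the filter. The median log2 difference of the tested members was 1.98 and that of all genes -0.05. Line and culture medium cannot be told apart in this comparison, and in bulk RNA fewer cells with a transcript cannot be told from less of it per cell.

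CDH5 measured 892, 855 and 911 TPM in TeloHAEC and 250, 167 and 245 TPM in Eahy926. Every TeloHAEC library lay above every Eahy926 library, with a log2 difference of 2.02 ± 0.0886 (SE, adjusted p = 3.47e-15), and 1.83 without Eahy926 replicate 1.2. CDH2 ran the other way, at 63.8, 72.0 and 70.1 TPM in TeloHAEC against 137, 101 and 134 TPM in Eahy926 (log2 difference -0.83, adjusted p = 2.21e-09, and -0.97 without Eahy926 replicate 1.2). Eahy926 thus held 124 ± 20.1 TPM of N-cadherin beside 221 ± 46.5 TPM of VE-cadherin (SD, n = 3), while TeloHAEC held 68.7 ± 4.27 TPM beside 886 ± 28.8 TPM.

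Among the tight junction genes, F11R had the widest gap that can be put as a ratio: 100.4, 108 and 111 TPM in TeloHAEC against 5.79, 4.83 and 5.44 TPM in Eahy926, 19.8-fold higher (log2 difference 4.08, adjusted p = 8.63e-22). CLDN5 was listed at 0 in every Eahy926 library, treated or not, and at 3.03 ± 0.543 TPM in untreated TeloHAEC. TJP1 was lower in TeloHAEC, at 40.5, 43.6 and 40.2 TPM against 77.1, 47.0 and 81.4 TPM (log2 difference -0.67, adjusted p = 2.41e-05, and -0.92 without Eahy926 replicate 1.2). OCLN, which encodes occludin, stood at 0.465 ± 0.0934 TPM in TeloHAEC and 0.962 ± 0.388 TPM in Eahy926, with libraries that overlapped through Eahy926 replicate 1.2 at 0.513 TPM (log2 difference -0.40). Its call (adjusted p = 0.0160) was lost without Eahy926 replicate 1.1 (0.0827), Eahy926 replicate 1.3 (0.0843) or TeloHAEC replicate 1.3 (0.0551), where the limma difference kept its sign, and was kept without Eahy926 replicate 1.2 (-0.58, adjusted p = 0.000819).

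ESAM, an endothelial adhesion molecule that binds MAGI scaffolds, measured 832, 796 and 839 TPM in TeloHAEC against 170, 166 and 159 TPM in Eahy926. PECAM1 measured 189, 188 and 182 TPM against 49.4, 46.0 and 44.7 TPM. Both genes separated the lines without overlap, by 4.99-fold and 4.00-fold (limma adjusted p = 6.78e-23 and 2.59e-18). JAM3 differed least of the members that were higher in TeloHAEC, with 118 ± 1.5 TPM against 76.8 ± 12.7 TPM (log2 difference 0.63, adjusted p = 6.28e-08, and 0.50 without Eahy926 replicate 1.2). JAM2 stayed at or below 0.332 TPM in every parental library of both lines.

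Ordered by level, untreated TeloHAEC ran CDH5, ESAM, PECAM1, JAM3, F11R, CDH2, TJP1, CLDN5, OCLN and JAM2, and no neighbours in that order overlapped between libraries. Untreated Eahy926 ran CDH5, ESAM, CDH2, JAM3, TJP1, PECAM1, F11R and OCLN, with CLDN5 and JAM2 listed at 0. In Eahy926 the libraries of CDH5 and ESAM and of TJP1 and PECAM1 overlapped through replicate 1.2, and those of JAM3 and TJP1 overlapped with or without it. In the untreated 1.x libraries the summed level of 8 epithelial markers was 4091 to 4153 TPM in Eahy926 and 2047 to 2134 TPM in TeloHAEC. Keratins made up nearly all of that sum in both lines, and CDH1, ESRP1 and GRHL2 were at or below 0.0807 TPM in every untreated 1.x library. In the untreated 0.1 and 0.2 libraries the sum was 2134 to 2246 TPM in Eahy926 and 2214 to 2225 TPM in TeloHAEC. The gap between the lines was thus seen in the 1.x libraries only.

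**Figure D1:**
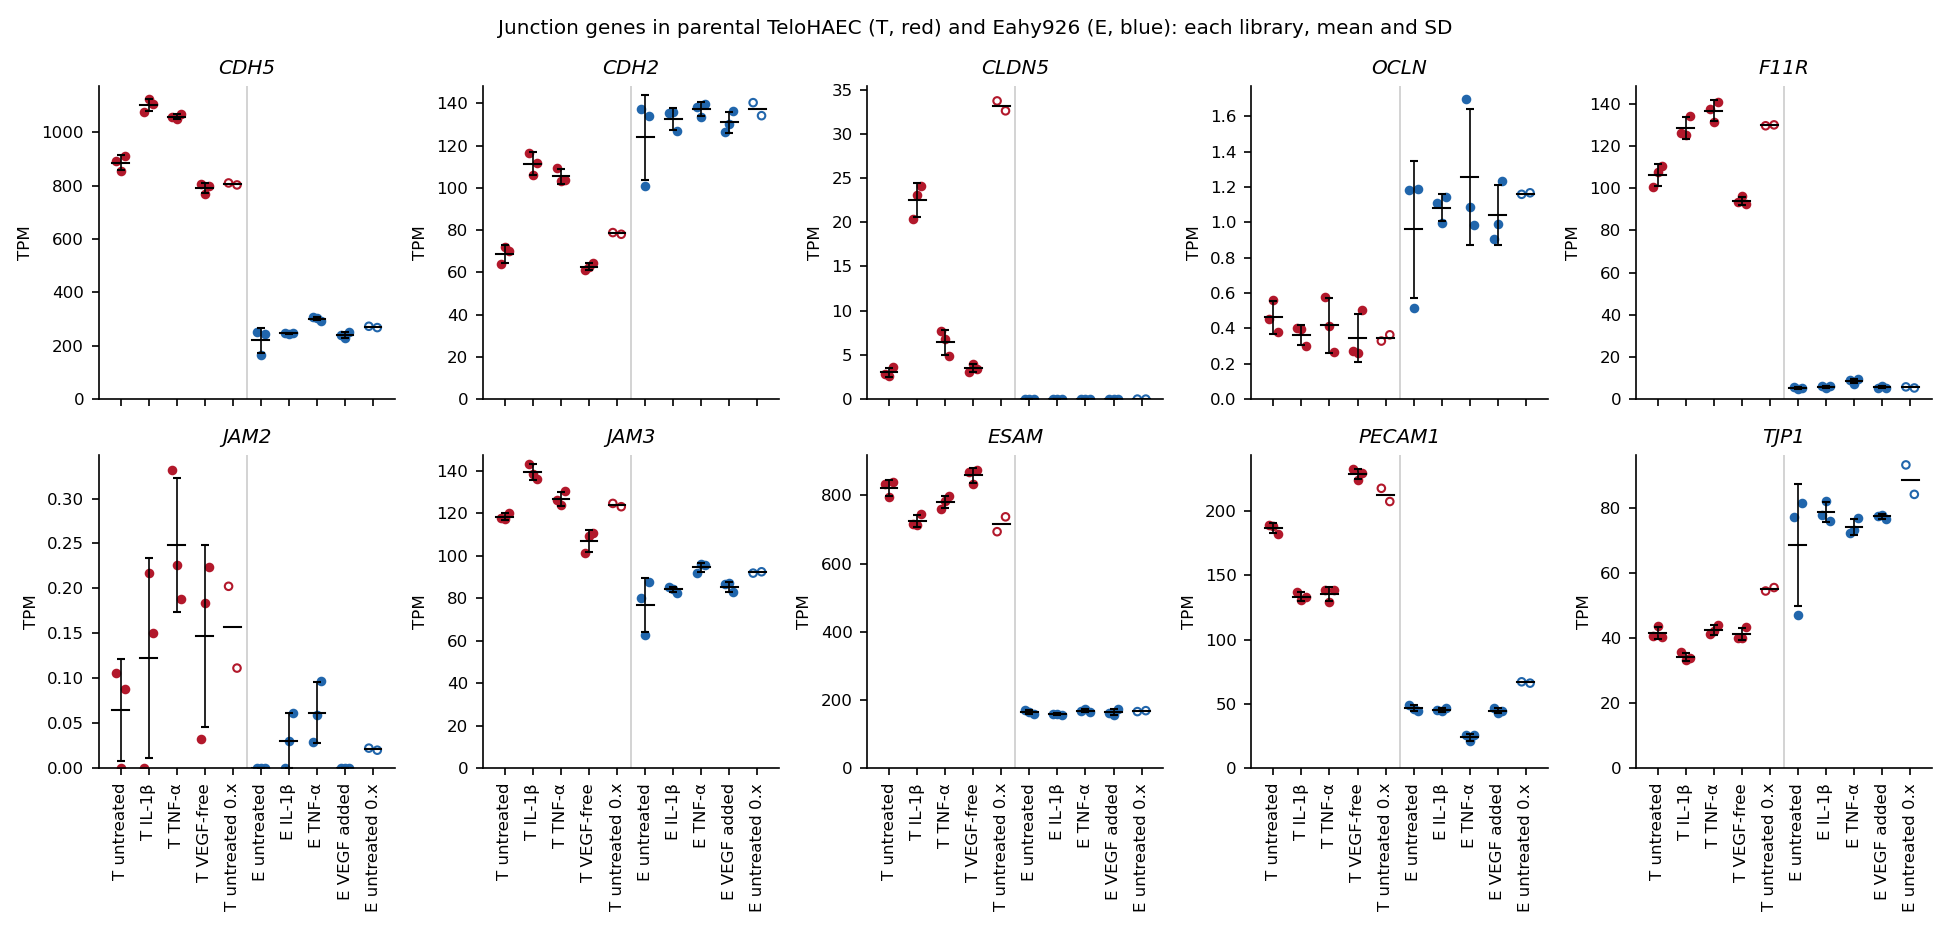
Level in TPM (vertical axes, each from 0) of the 10 junction genes in each parental library, TeloHAEC in red and Eahy926 in blue, with group means and SD bars (n = 3) and the untreated 0.1 and 0.2 libraries as open points with their mean only. CLDN5 is at 0 in all Eahy926 groups, rises with IL-1β in TeloHAEC to 22.5 TPM and stands at 33.2 TPM in the open points, and the low untreated Eahy926 point of CDH5, CDH2, JAM3 and TJP1 is replicate 1.2.

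Of the wider set of 67 junction genes (catenins, cadherin phosphatases, nectins, scaffolds, other claudins, connexins, border adhesion, the Rap1 and HEG1 arm, and desmosomes), 51 were tested between the lines, and 27 were higher and 18 lower in TeloHAEC, beside 36.3% higher and 39.9% lower over all genes. The largest differences among genes of at least 5 TPM were in CLDN11, a claudin of myelin and testis, at 0.486 ± 0.223 TPM in TeloHAEC against 258 ± 11.96 TPM in Eahy926. PKP2, a desmosomal plaque protein, stood at 0.0124 against 55.1 TPM. MCAM, an adhesion molecule of endothelial borders, stood at 1608 ± 42.2 against 38.4 ± 1.75 TPM, and RASIP1, a Rap1 effector of endothelial lumens, at 202 ± 5.30 against 4.79 ± 1.1 TPM. Eahy926, with CLDN5 listed at 0, thus held CLDN11 at a higher TPM than JAM3, TJP1, F11R or OCLN.

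IL-1β gave TeloHAEC more CLDN5, CDH2 and CDH5 and less PECAM1 and ESAM. CLDN5 measured 20.4, 23.1 and 24.1 TPM after IL-1β against 2.86, 2.59 and 3.63 TPM untreated, 7.44-fold higher and without overlap (log2 difference 2.55 ± 0.123, adjusted p = 3.03e-13). CDH2 measured 117, 106 and 112 TPM, 1.62-fold over its untreated level (log2 difference 0.69, adjusted p = 3.50e-07). In all 7 of 9 tested members were called, 5 higher and 2 lower, where 31.1% of all genes were called, and their median log2 difference was 0.23 beside -0.07 for all genes.

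The other IL-1β changes in TeloHAEC were small next to that of CLDN5. CDH5 rose from 886 ± 28.8 to 1102 ± 23.5 TPM (log2 difference 0.32, limma adjusted p = 0.00898), F11R from 106 ± 5.23 to 129 ± 5.03 TPM (0.27, adjusted p = 0.00996) and JAM3 from 118 ± 1.5 to 139 ± 3.61 TPM (0.23, adjusted p = 0.0175). The JAM3 call was lost without untreated replicate 1.2 (adjusted p = 0.0515) or IL-1β replicate 1.1 (0.0619), and the F11R call without untreated replicate 1.1 (0.0539). PECAM1 fell to 137, 131 and 133 TPM from 189, 188 and 182 TPM (log2 difference -0.48, adjusted p = 1.10e-06). ESAM fell from 823 ± 23.3 to 725 ± 17.8 TPM (-0.18, adjusted p = 0.000768), a call lost under median-of-ratios scaling (-0.12, adjusted p = 0.0691). TJP1 measured 34.2 ± 1.27 TPM against 41.5 ± 1.87 TPM untreated and did not pass (adjusted p = 0.0899), nor did OCLN (0.661).

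The untreated 0.1 and 0.2 libraries bear on CLDN5. Their levels of 33.7 and 32.6 TPM exceeded those of every IL-1β library. With all 5 untreated libraries as the control, the CLDN5 difference after IL-1β was 1.31 and missed the threshold (adjusted p = 0.0588), and after TNF-α it was -0.36 (adjusted p = 0.670). F11R (0.16, adjusted p = 0.155) and ESAM (-0.10, adjusted p = 0.125) after IL-1β also lost their calls with all 5, and TJP1 (-0.43, adjusted p = 0.0215) gained one, while CDH5, CDH2, PECAM1 and JAM3 kept theirs. The labels give the 0.x libraries the same normal medium and name no other difference. CLDN5 in unstimulated TeloHAEC therefore ranged from 2.59 to 33.7 TPM over 5 libraries, a wider span than from untreated 1.x to IL-1β. Other members also separated the untreated 0.x from the 1.x libraries without overlap. F11R (129.7 to 130.1 against 100.4 to 110.5 TPM) and TJP1 (54.4 to 55.5 against 40.2 to 43.6 TPM) were higher in 0.x. CDH5 (803 to 810 against 855 to 911 TPM) and ESAM (693 to 737 against 796 to 839 TPM) were lower. The CLDN5 span thus lies between these sets of libraries, and its cause was not tested.

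TNF-α in TeloHAEC gave a smaller CLDN5 rise. CLDN5 measured 7.67, 6.76 and 4.87 TPM, 2.13-fold over untreated 1.x and without overlap (log2 difference 0.87 ± 0.123, adjusted p = 1.29e-05). Members called were 5 of 9, 4 higher and 1 lower, where 18.2% of all genes were called. CDH2 rose to 105 ± 3.55 TPM (0.61, adjusted p = 3.19e-06) and F11R to 137 ± 4.88 TPM (0.36, adjusted p = 0.00160). PECAM1 fell to 138, 129 and 138 TPM (-0.46, adjusted p = 3.10e-06). CDH5 measured 1059, 1049 and 1068 TPM, all above the untreated libraries, yet its limma call was marginal (0.26, adjusted p = 0.0472) and was lost with no filter (0.0878) and when any 1 of the 6 compared libraries was left out (0.0733 to 0.146). ESAM, JAM3, TJP1 and OCLN did not pass (adjusted p = 0.197, 0.421, 0.910 and 0.887).

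Set directly against each other in TeloHAEC, the cytokines differed in 1 of 9 tested members, CLDN5, where 12.7% of all genes were called: 22.5 ± 1.94 TPM with IL-1β and 6.43 ± 1.43 TPM with TNF-α (log2 difference 1.68, limma adjusted p = 2.14e-09). JAM3 was also called under median-of-ratios scaling (0.18, adjusted p = 0.0361), and JAM3 (0.13, adjusted p = 0.0467) and TJP1 (-0.30, adjusted p = 0.0128) with only the groups compared in the fit. The difference in PECAM1 was -0.02 with a 95% interval of -0.14 to 0.10, and in CDH2 0.08 with an interval of -0.08 to 0.24. TJP1 (34.2 against 42.5 TPM, adjusted p = 0.104) and ESAM (725 against 780 TPM, adjusted p = 0.0731) were lower with IL-1β in every library without passing. With all 5 untreated libraries in the fit, whose CLDN5 spread is shared by all groups, the CLDN5 difference of 1.68 missed the threshold (adjusted p = 0.123).

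Medium without VEGF left most members near their untreated level. PECAM1 measured 232, 224 and 230 TPM against 189, 188 and 182 TPM, without overlap (log2 difference 0.29, adjusted p = 0.00180), the opposite direction to both cytokines. It was the 1 member called of 9, where 13.1% of all genes were called, and with all 5 untreated libraries, where 0.1 and 0.2 held 218 and 207 TPM, the call was lost (0.22, adjusted p = 0.173). CDH5 (792 ± 18.7 TPM, adjusted p = 0.262), F11R (94.2 ± 1.91 TPM, 0.169) and JAM3 (107 ± 5.14 TPM, 0.216) lay below every untreated 1.x library without passing.

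In Eahy926, TNF-α moved PECAM1 most and CLDN5 stayed listed at 0. PECAM1 measured 25.5, 21.1 and 25.4 TPM against 49.4, 46.0 and 44.7 TPM, 0.514 of untreated (log2 difference -0.94, adjusted p = 4.00e-11). Members called were 4 of 9, 3 higher and 1 lower, where 20.0% of all genes were called. Of these 9, CLDN5 could not have been called, being 0 in both groups. F11R rose from 5.35 ± 0.489 to 8.56 ± 1.12 TPM (0.59, adjusted p = 6.56e-06). CDH5 rose from 221 ± 46.5 to 302 ± 6.62 TPM (0.47, adjusted p = 0.000420) and JAM3 from 76.8 ± 12.7 to 94.5 ± 2.31 TPM (0.31, adjusted p = 0.00360). Without untreated replicate 1.2 these were 0.29 for CDH5 (adjusted p = 2.70e-06) and 0.17 for JAM3 (0.00671), with both calls kept. With all 5 untreated Eahy926 libraries the JAM3 call was lost (0.20, adjusted p = 0.0987), and with only the TNF-α and untreated groups in the fit the calls of CDH5 (adjusted p = 0.186), F11R (0.0585) and JAM3 (0.255) were lost.

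IL-1β and added VEGF called no member in Eahy926 by limma. CLDN5, at 0 TPM in every Eahy926 library, is among the 9 but could not have been called with either treatment. With IL-1β 0 of 9 passed and 0 had an unadjusted p under 0.05, and 0.00738% of all genes, 1 gene, was called. With added VEGF 0 of 9 passed and 1, JAM3, had an unadjusted p under 0.05 (0.0324), where again 0.00738% of all genes were called. CDH5 measured 246 ± 2.28 TPM with IL-1β and 240 ± 12.2 TPM with VEGF, and CDH2 133 ± 5.09 and 131 ± 4.99 TPM. Without untreated replicate 1.2 the IL-1β difference of CDH5 went from 0.18 to -0.01 and that of TJP1 from 0.23 to -0.01.

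**Figure D2:**
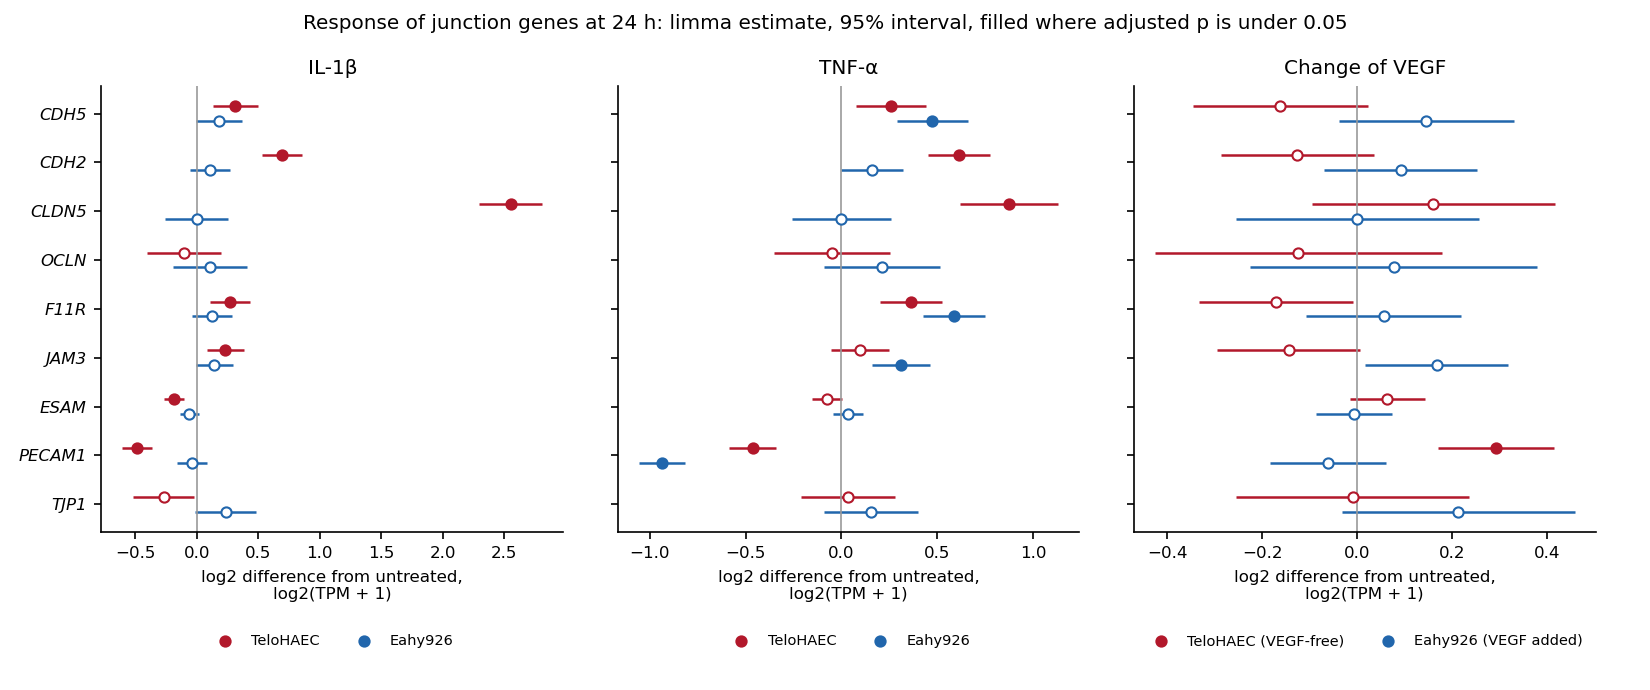
Difference from untreated on the log2(TPM + 1) scale (horizontal axes, which differ between panels) of the 9 tested members, as the limma estimate with its 95% interval, TeloHAEC in red and Eahy926 in blue, filled where called. CLDN5 stands alone at 2.55 after IL-1β in TeloHAEC, and PECAM1 is lower after TNF-α in both lines and higher in TeloHAEC without VEGF.

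The response itself was compared between the lines by an interaction term. For IL-1β, 4 of 9 members differed, where 22.5% of all genes did: CLDN5 (difference of log2 differences 2.55, adjusted p = 2.79e-10) and CDH2 (0.58, 0.000464) responded more in TeloHAEC, and PECAM1 (-0.45, 0.000386) and TJP1 (-0.50, 0.0333) moved lower there relative to Eahy926. The CLDN5 value equals the TeloHAEC response, since Eahy926 is listed at 0 throughout. Without untreated Eahy926 replicate 1.2, TJP1 was -0.26 (adjusted p = 0.00816), and CDH5 (0.32, 2.63e-05) and JAM3 (0.23, 0.00739) were also called. With it in, the TJP1 call was lost in 5 of the leave-one-out fits, with adjusted p from 0.0533 to 0.0760, those without Eahy926 IL-1β replicate 1.1 or 1.2, TeloHAEC untreated replicate 1.2 or TeloHAEC IL-1β replicate 1.2 or 1.3. With all 5 untreated libraries of each line the calls of CLDN5 (1.31, adjusted p = 0.257), PECAM1 (-0.32, 0.151) and TJP1 (-0.50, 0.0877) were lost and that of CDH2 was kept. Median-of-ratios scaling moved the median of all genes in this interaction by 0.10.

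For TNF-α, 3 of 9 members differed in response, where 10.3% of all genes did. PECAM1 fell less in TeloHAEC, by 0.46 on the log2 scale against 0.94 in Eahy926 (interaction 0.47, limma adjusted p = 0.000393). CDH2 responded more in TeloHAEC (0.46, 0.00808), as did CLDN5 (0.87, 0.00147), whose value is again that of TeloHAEC alone. The CDH2 call was lost with only the groups compared in the fit (adjusted p = 0.0749), and with all 5 untreated libraries CLDN5 was -0.36 (adjusted p = 0.877). F11R and JAM3 had interactions of -0.22 and -0.21 that missed the threshold (adjusted p = 0.242 and 0.232).

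The epithelial marker sum moved with the cytokines too: it was 1061 to 1100 TPM after IL-1β and 1483 to 1572 TPM after TNF-α in TeloHAEC, against 2047 to 2134 TPM untreated, and 2527 to 2669 TPM after TNF-α in Eahy926, against 4091 to 4153 TPM. The endothelial sum was 1757 to 1822 TPM after IL-1β and 1735 to 1835 TPM untreated in TeloHAEC. The part of these markers in the junction results was not tested.

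Of the 51 wider junction genes tested, IL-1β in TeloHAEC called 8 higher and 14 lower, beside 31.1% of all genes called in either direction. TNF-α in TeloHAEC called 9 and 8 (18.2% of all genes), VEGF-free medium 1 and 2 (13.1%), and TNF-α in Eahy926 7 and 6 (20.0%). IL-1β and added VEGF in Eahy926 called none, as for the members. After IL-1β in TeloHAEC, CLDN14, a cation-barrier claudin, rose from 1.51 ± 0.433 to 8.34 ± 1.09 TPM and GJA1, the gap junction protein connexin 43, from 155 ± 9.88 to 335 ± 8.80 TPM. CGNL1, paracingulin of tight and adherens junctions, fell from 15.4 ± 1.69 to 5.51 ± 0.125 TPM and NECTIN1, an adherens junction immunoglobulin protein, from 34.5 ± 1.23 to 19.99 ± 1.35 TPM. TNF-α moved the first 3 of these the same way, CLDN14 to 10.4 ± 1.16 TPM, GJA1 to 221 ± 13.4 TPM and CGNL1 to 10.3 ± 0.737 TPM, and CLDN12 rose to 5.86 ± 0.947 TPM. In Eahy926, where CLDN5 was listed at 0, TNF-α raised CLDN1, a claudin of epithelia, from 17.5 ± 1.73 to 68.1 ± 3.04 TPM (log2 difference 1.90, adjusted p = 6.95e-11) and lowered PKP2 from 55.1 ± 6.41 to 32.3 ± 2.60 TPM.

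In the CRISPRi cells the order of levels in the 4 non-targeting libraries was PECAM1, ESAM, CDH5, F11R, JAM3, TJP1, CDH2, CLDN5, JAM2 and OCLN, with no overlap between neighbours. PECAM1 stood at 704 ± 43.8 TPM, CDH5 at 363 ± 15.1 TPM, CDH2 at 12.6 ± 1.12 TPM and CLDN5 at 7.29 ± 1.89 TPM (SD, n = 4). The CRISPRi and parental columns hold different symbols and sum to different totals, and they were not compared with each other. The guides that the results below turn on are printed in lower case, 5′ to 3′, with the adjoining PAM that the Cas9 protein needs in capitals where the guide matched a GENCODE 29 transcript or a RefSeq promoter of its target, in full or without its first base.
CDH5 guide 1: gccagctggaaaacctgaag
CDH5 guide 2: gttggactgcctgtccgtccaGGG
MAP3K3 guide 1: gttcctgaggtggagaacggTGG
MAP3K3 guide 2: gccaataacaagaaggaagtCGG
MAP2K5 guide 1: gccgaggccgcgcggactggCGG
MAP2K5 guide 2: gtctgccccacccggagacacAGG
MEF2A guide 1: gcggcgcgaagcgctggtggCGG
MEF2A guide 2: gactgaattatcctctcggtGGG
KLF2 guide 1: ggacccggggagaaaggacgCGG
KLF2 guide 2: gaagtccgcaacccggggat
CCM2 guide 1: ggcaagaaggtgagcgtgcg
CCM2 guide 2: gagccgctacatgctcgacccGGG
On GRCh38, CDH5 guide 2 lies at chr16:66366706-66366726 on the minus strand, in the 5′ UTR of CDH5. MAP2K5 guides 1 and 2 lie at chr15:67542757-67542775 and chr15:67542810-67542829, both on the minus strand in the 5′ UTR, and MAP3K3 guide 1 at chr17:63622429-63622448 on the plus strand, also in the 5′ UTR.

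Each target was first read in its own libraries, as a share of the mean of the non-targeting libraries. CDH5 was left at 2.74% and 2.58% by its 2 guides, MAP3K3 at 3.43% and 14.4%, MEF2A at 3.61% and 13.2%, KLF2 at 2.78% and 5.69%, CCM2 at 15.6% and 4.45%, PDCD10 at 12.9% and 40.9%, ITGB1BP1 at 12.9% and 14.2%, and MESDC1 (named TLNRD1 in these columns) at 9.76% and 20.3%. MAP2K5 was at 105% with guide 1 and 5.11% with guide 2, and NFAT5 at 18.7% with guide 1 and 97.1% with guide 2. So 1 library of MAP2K5 and 1 of NFAT5 did not have the target reduced, and the group values of these targets mix a reduced with an unreduced library.

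Loss of CDH5 mRNA was not accompanied by a called change in any other member. CDH5 measured 9.96 and 9.36 TPM in its knockdown against 345, 378, 373 and 358 TPM in the non-targeting libraries (log2 difference -5.09, limma adjusted p = 2.94e-14). It was the 1 of 9 members called and is the targeted gene, and 0.0141% of all genes were called. CLDN5 measured 6.60 and 3.26 TPM against 6.39, 9.50, 8.06 and 5.19 TPM in the controls, a difference of -0.51 with a 95% interval from -1.38 to 0.36. PECAM1, ESAM, F11R and JAM3 had intervals of -0.48 to 0.30, -0.19 to 0.21, -0.39 to 0.16 and -0.29 to 0.37. TJP1 stood at 23.6 and 22.9 TPM, above the controls at 16.3 to 22.3 TPM, without passing (0.28, adjusted p = 1).

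Apart from CDH5 in its own knockdown, CLDN5 had the widest range of the tested members over the CRISPRi libraries on the log2(TPM + 1) scale, from 1.45 to 33.8 TPM. MAP3K3, MAP2K5, MEF2A and KLF2 belong to 1 cascade, in which the kinase MEKK3 (MAP3K3) activates MEK5 (MAP2K5), and MEK5 through ERK5 and MEF2 factors drives KLF2, the flow-response factor of endothelium. CLDN5 measured 33.8 and 16.9 TPM with the MAP3K3 guides, 24.5 and 12.1 TPM with the MEF2A guides, and 19.5 and 16.3 TPM with the KLF2 guides, each above the highest non-targeting library at 9.50 TPM. With MAP2K5 it was 21.9 TPM where the target was reduced and 6.99 TPM, within the controls, where it was not. All 7 libraries of these 4 targets with the target below the level of the controls lay above all 4 controls, from 12.1 to 33.8 TPM. The 4 targets were put together after their values were seen.

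None of these CLDN5 differences passed limma over all genes. The log2 difference was 1.62 ± 0.413 for MAP3K3 (unadjusted p = 0.00105, adjusted p = 0.271), 1.21 for KLF2 (0.00896, adjusted p = 1), 1.17 for MEF2A (0.0112, adjusted p = 0.705) and 0.74 for MAP2K5 (0.0925, adjusted p = 1). The share of all genes called was 0.0566% for MAP3K3, 0.0141% for KLF2, 0.00707% for MEF2A and 0% for MAP2K5. Members with an unadjusted p under 0.05 were 1 for MAP3K3 and 1 for KLF2, CLDN5 in both, 2 for MEF2A, CLDN5 and CDH5, and 0 for MAP2K5, with 0 called in each. CDH5 in the MEF2A libraries measured 530 and 384 TPM (log2 difference 0.31, adjusted p = 0.747), and the first of these libraries was the highest of all 24 for CDH5, PECAM1, ESAM, F11R and JAM3 together.

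In each of the 4 cascade targets the guide that left less target mRNA gave the higher CLDN5. This order was not particular to the cascade. ITGB1BP1 (7.04 TPM at 12.9% left, 4.44 TPM at 14.2%) and MESDC1 (3.82 TPM at 9.76%, 3.27 TPM at 20.3%) had it without a rise over the controls. In CCM2, PDCD10 and CDH5 the guide that left less target gave the lower CLDN5. NFAT5, an osmotic stress factor outside that cascade, had 13.7 TPM of CLDN5 with the effective guide and 7.73 TPM with the ineffective one, with 0 members called, 0 at an unadjusted p under 0.05 and 0.00707% of all genes called. CDH5, with the least target left of any gene, showed no such rise. With 2 guides a target this is a description of single libraries, and no test was made of it.

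**Figure D3:**
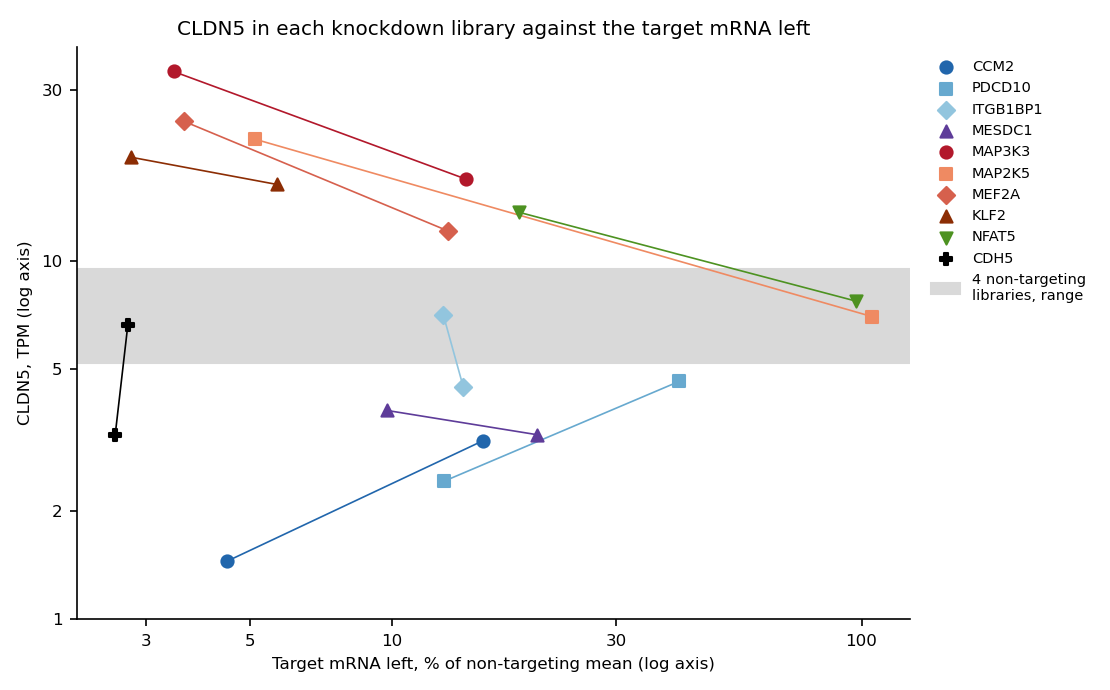
CLDN5 in TPM (vertical, log axis) in each of the 20 knockdown libraries against the target mRNA left as a percent of the non-targeting mean (horizontal, log axis), with a line joining the 2 guides of a target and a grey band for the range of the 4 non-targeting libraries. The MAP3K3, MEF2A and KLF2 libraries and the effective MAP2K5 and NFAT5 libraries lie above the band, the CCM2, PDCD10 and MESDC1 libraries and 1 each of ITGB1BP1 and CDH5 lie below it, and the unreduced MAP2K5 and NFAT5 libraries lie in it.

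CLDN5 lay below all 4 controls in 8 libraries: both of CCM2, of PDCD10 and of MESDC1 (3.82 and 3.27 TPM), guide 2 of ITGB1BP1 (4.44 TPM) and guide 2 of CDH5. CCM2 and PDCD10 are cerebral cavernous malformation genes, whose proteins form a complex that restrains MEKK3. CLDN5 fell to 3.15 and 1.45 TPM with the CCM2 guides, below all controls (log2 difference -1.35, adjusted p = 0.0368). That call was lost with no filter (adjusted p = 0.0869), without non-targeting replicate 1, 2 or 3 (0.0563 to 0.0831) and without CCM2 guide 2 (-0.97, adjusted p = 0.395). CDH2 fell to 7.54 and 4.68 TPM against 13.1, 11.2, 13.9 and 12.3 TPM (-0.96, adjusted p = 0.00319), a call lost without CCM2 guide 2 (-0.67, adjusted p = 0.146). These were the 2 of 9 members called, where 14.0% of all genes were called (1984 genes, and 380 without CCM2 guide 2), and the median log2 difference of the members was -0.17 beside -0.10 for all genes.

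The other members in the CCM2 libraries did not pass. PECAM1 measured 887 and 988 TPM against 664 to 761 TPM in the controls (0.41, adjusted p = 0.155), and TJP1 15.0 and 11.7 TPM against 16.3 to 22.3 TPM (-0.49, adjusted p = 0.204). CDH5 at 337 and 307 TPM lay below all 4 controls by a small margin (-0.17, adjusted p = 0.418), and the intervals of ESAM and JAM3 were -0.16 to 0.23 and -0.30 to 0.36.

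With the PDCD10 guides F11R fell to 104 and 97.6 TPM against 162, 131, 148 and 128 TPM (log2 difference -0.48, adjusted p = 0.0359), the 1 of 9 members called, where 7.04% of all genes were called (996 genes, with 9 without guide 1 and 2884 without guide 2). The call was lost with no filter (adjusted p = 0.0772), under median-of-ratios scaling (-0.37, adjusted p = 0.0646), which moved the median of all genes by 0.10, and in 4 of the 6 leave-one-out fits. Guide 1, which left 12.9% of PDCD10, held CDH5 at 255, PECAM1 at 448, ESAM at 428 and TJP1 at 9.16 TPM, the lowest of all 24 libraries for the last 3. Guide 2, which left 40.9%, held them at 294, 710, 503 and 15.8 TPM. Fitted without guide 2, CDH5 (-0.51, adjusted p = 0.0393), PECAM1 (-0.65, 0.0315), ESAM (-0.34, 0.0388) and TJP1 (-0.98, 0.0241) were called lower and F11R was not (adjusted p = 0.0841), with the lone library assumed to vary like the other groups. CLDN5 measured 2.43 and 4.61 TPM (-0.89, adjusted p = 0.195) and CDH2 7.23 and 8.47 TPM (-0.62, adjusted p = 0.0629).

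ITGB1BP1 encodes ICAP1, which binds integrin β1 and the CCM protein KRIT1. Its knockdown called 0 of 9 members by limma, with 2 at an unadjusted p under 0.05, CDH2 and PECAM1, where 7.70% of all genes were called (1089 genes, with 209 without guide 1 and 433 without guide 2). CDH2 measured 7.19 and 8.65 TPM (log2 difference -0.61, adjusted p = 0.0629) and PECAM1 543 and 496 TPM, below all controls (-0.44, adjusted p = 0.159), while CLDN5 measured 7.04 and 4.44 TPM (-0.30, adjusted p = 0.721). MESDC1 knockdown, against a protein with a talin rod domain, also called 0 of 9, with 2 at an unadjusted p under 0.05, CDH2 and PECAM1, where 0.552% of all genes were called. There CDH2 measured 9.04 and 5.65 TPM (-0.73, adjusted p = 0.116) and PECAM1 861 and 1027 TPM, above all controls (0.42, adjusted p = 0.431). The CLDN5 difference with MESDC1 was -0.84 (adjusted p = 0.513). CDH2 was thus below every control library in all 8 libraries of CCM2, PDCD10, ITGB1BP1 and MESDC1, with a call for CCM2 only. It lay above every control, without a call, in both libraries of MAP3K3 (15.8 and 14.1 TPM) and KLF2 (15.8 and 15.7 TPM). The same held for MEF2A guide 1 (15.9 TPM) and MAP2K5 guide 2 (19.4 TPM). With both guides, PECAM1 was above the controls for CCM2 and MESDC1 and below them for ITGB1BP1 and KLF2 (583 and 630 TPM). With 1 guide only, it was below them for PDCD10, MAP2K5 guide 2 and CDH5, and above them for MEF2A, NFAT5 and MAP2K5 guide 1. Guide 1 of CDH5 also held CDH2 below every control, at 10.4 TPM, and guide 2 did not, at 12.6 TPM.

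**Figure D4:**
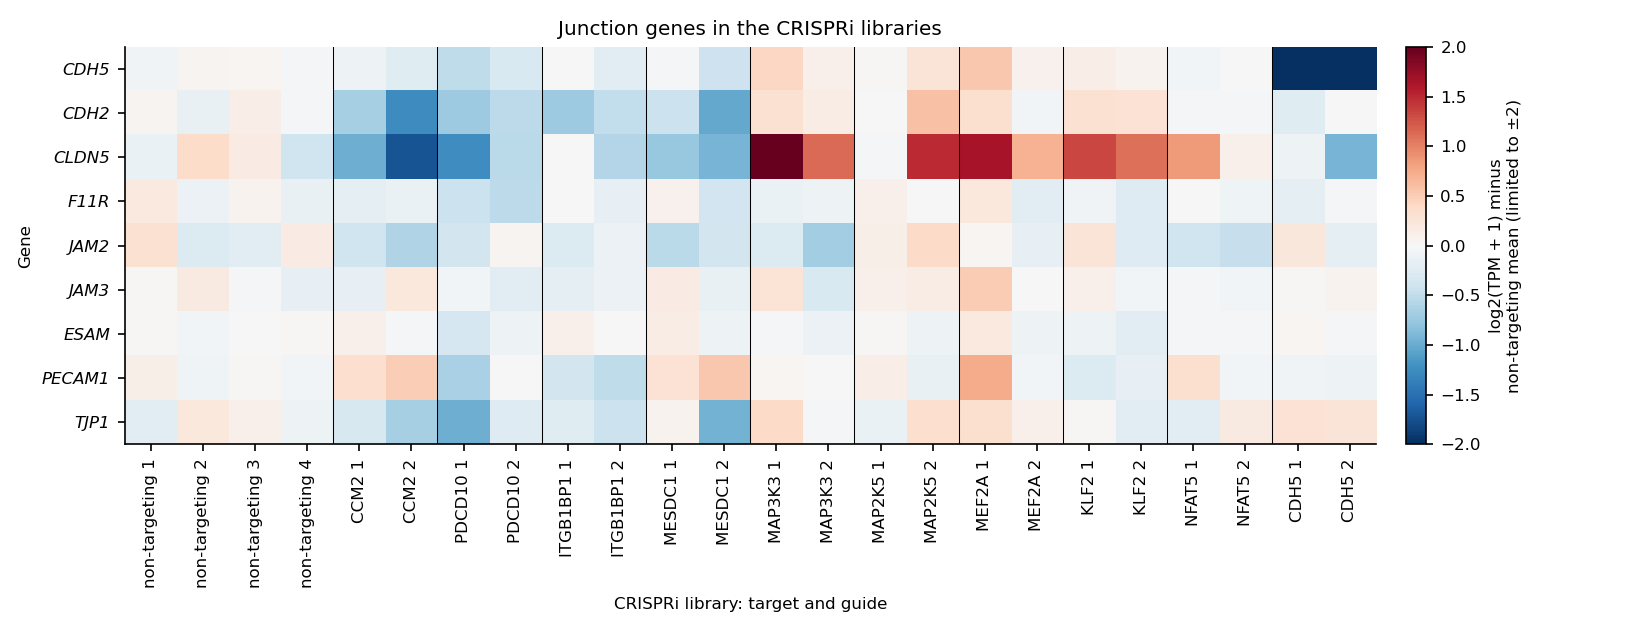
Level of the 9 tested members (rows) in each CRISPRi library (columns) as log2(TPM + 1) minus the mean of the 4 non-targeting libraries, red where higher and blue where lower, with colour limited at 2 log2 units either way. The row of CLDN5 has the strongest colours apart from CDH5 in its own knockdown, red in the MAP3K3, MEF2A and KLF2 libraries and 1 each of MAP2K5 and NFAT5, and blue in those of CCM2, PDCD10 and MESDC1 and in guide 2 of ITGB1BP1 and CDH5.

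Markers of other cell types moved with these knockdowns. The epithelial sum was 5402 to 6506 TPM in the CCM2 libraries, 2631 to 6818 TPM with PDCD10, 2936 to 3266 TPM with ITGB1BP1 and 2493 to 2652 TPM with MESDC1, against 1209 to 1394 TPM in the non-targeting libraries. It was 875 to 969 TPM with MAP3K3 and 953 to 994 TPM with KLF2. The rise with CCM2 was in keratins, KRT18 from 896 to 4966 TPM and KRT19 from 296 to 865 TPM, while CDH1 was 0.131 TPM in the controls and 0.126 TPM with CCM2, and EPCAM 0.230 and 0.122 TPM. The endothelial sum was 2366 to 2703 TPM with CCM2 against 1768 to 1878 TPM. The leukocyte sum was 42.9 to 52.1 TPM with CCM2 and 33.0 to 62.7 TPM with MESDC1 against 12.3 to 14.4 TPM, nearly all of it CD14, with PTPRC at 0.163 TPM with CCM2. The part of these markers in the junction results was not tested.

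Of the 67 wider junction genes 47 were tested in the CRISPRi libraries. CCM2 knockdown called 3 higher and 7 lower (14.0% of all genes called in either direction), PDCD10 3 and 4 (7.04%) and ITGB1BP1 3 and 2 (7.70%). The other 7 targets called none of the 47 by limma, beside 0% to 0.552% of all genes. HEG1, the transmembrane partner of the CCM complex at junctions, had the largest rise on the log2(TPM + 1) scale with all 3. It measured 133 ± 43.3 TPM with CCM2, 67.1 ± 41.0 with PDCD10 and 71.0 ± 8.75 with ITGB1BP1 (SD, n = 2), against 23.8 ± 1.22 TPM in the controls (limma adjusted p = 9.52e-06, 0.00819 and 0.00112). CLDN14 rose by the larger ratio with PDCD10 (3.69-fold against 2.82-fold). Its 2 PDCD10 libraries lay far apart, at 7.34 ± 6.30 TPM against 1.99 ± 0.320 TPM in the controls (limma adjusted p = 0.0385). Of the catenins and linkers, 3, 3 and 2 of the 10 tested with CCM2, PDCD10 and ITGB1BP1 were called lower, beside 8.37%, 4.55% and 4.36% of all genes, and 0 higher. JUP, plakoglobin, measured 47.4 ± 29.3 TPM with CCM2 and 78.9 ± 52.1 with PDCD10 against 148 ± 12.2 TPM (adjusted p = 0.00122 and 0.0473). ARVCF, a catenin of the p120 family, measured 12.7, 15.1 and 15.5 TPM on average with CCM2, PDCD10 and ITGB1BP1 against 29.4 ± 3.12 TPM (adjusted p = 0.00369, 0.0252 and 0.0256). CTNND1, p120-catenin itself, which keeps VE-cadherin at the surface, measured 71.1 ± 1.16 TPM with ITGB1BP1 against 105 ± 6.02 TPM (adjusted p = 0.00436). CGNL1, lower after both cytokines in parental cells, was higher with CCM2, at 21.3 ± 2.64 against 11.01 ± 1.13 TPM (adjusted p = 0.00748). CDH5 itself was not called in these 3 knockdowns.

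The low members stayed low in every CRISPRi library. JAM2 ranged from 0.192 TPM (MAP3K3 guide 2) to 1.53 TPM (MAP2K5 guide 2) and was called in none of the 10 knockdowns by limma, with 1 unadjusted p under 0.05, for CCM2 (0.0472). OCLN, below the filter, ranged from 0.122 to 1.27 TPM.

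Across the 24 CRISPRi libraries the genes whose log2(TPM + 1) ran closest to each called member were ranked by Pearson's r among 9793 genes with a mean of at least 5 TPM. For CLDN5 they were N4BP3 (0.924), CLU (0.905) and ARVCF (0.8998). CDH2 ran closest to COL4A1 (0.950), TXNDC5 (0.947) and LIPG (0.947), and F11R to API5 (0.833), TRAFD1 (0.830) and IL13RA1 (0.828). CDH5 had weaker neighbours, AC008982.1 (0.683), PDXDC2P (0.666) and AC022149.1 (0.582), and its pattern is set mainly by the 2 libraries of its own knockdown. These values describe libraries that share targets and controls, and no test was made of them.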

How the data were processed

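The authors deposited 1 table of TPM for 52 libraries and 43290 symbols, without coordinates. Per the submitters' processing notes, Bowtie2 and kallisto were used with hg19, with no version or order given. TPM summed to the same total in every parental library and to between 968439 and 972166 in the CRISPRi libraries. With a total that is fixed or nearly so, a rise in abundant genes lowers the others. The parental and CRISPRi columns hold different symbols (27311 and 35587 with values), so each set was fitted alone with limma 3.58.1 in R 4.3.3 (trend, empirical Bayes, two-sided) on log2 of TPM plus 1: 13542 genes, 8 groups and 24 libraries, and 14143 genes, 11 groups and 24 libraries. The 2 guides of a target, 1 library each, served as its replicates, although they could leave unlike shares of the target (12.9% and 40.9% of PDCD10). The spread behind the knockdown p-values therefore mixes guides, and no guide had a repeat library. From each fit 10 comparisons were read. The members, the wider list, the markers and the tests were chosen with earlier results of these data known. Named genes were all members, and per comparison up to 4 called genes of the wider list by size of change, if the higher of both group means reached 5 TPM. The fit was tested on simulated data. Guides from the labels were matched on both strands to GENCODE 29 transcripts and RefSeq promoters of their targets, both on GRCh38.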

Additional observations from a re-analysis of the deposited data

Results flagged for a closer look

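In 7 cases the response to a cytokine differed between the lines by the interaction term of limma. After IL-1β these were CLDN5 (2.55), PECAM1 (-0.45), TJP1 (-0.50) and CDH2 (0.58), and after TNF-α CLDN5 (0.87), PECAM1 (0.47) and CDH2 (0.46), all as TeloHAEC minus Eahy926 on the log2(TPM + 1) scale. CLDN5 was listed at 0 in every Eahy926 library, so its values are those of TeloHAEC alone. CLDN5 also stood at a mean of 33.2 TPM in the untreated TeloHAEC libraries numbered 0.1 and 0.2, which the main fit left out, against 3.03 TPM in the untreated libraries 1.1 to 1.3.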

How the results depend on the processing

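The CLDN5 response to TNF-α in TeloHAEC and its difference between the lines both reversed to -0.36 with all 5 untreated libraries as controls. The number of members called moved as follows. With all 5 controls it was 0 rather than 1 for IL-1β against TNF-α and 1 rather than 4 for the difference in IL-1β response. With only the groups compared in the fit it was 2 rather than 1 for VEGF-free medium, 1 rather than 4 for TNF-α in Eahy926, 3 rather than 1 for IL-1β against TNF-α, 0 rather than 1 for PDCD10 and 2 rather than 0 for ITGB1BP1. Under median-of-ratios scaling it was 2 for VEGF-free medium, 2 for IL-1β against TNF-α and 0 for PDCD10, and with no filter 1 rather than 2 for CCM2 and 0 for PDCD10. Leaving out 1 library at a time gave 0 to 2 for CCM2 and 0 to 4 for PDCD10. The cause of these moves was not tested. Left out 1 at a time, untreated Eahy926 replicate 1.1 added a CDH2 call for TNF-α in Eahy926 (0.24, limma adjusted p = 0.0348) and replicate 1.3 a JAM3 call for the TNF-α response difference (-0.31, adjusted p = 0.0239). Of 252 recomputed counts of members 232 were equal or stayed within 1.5 times. These include counts that were 0 and stayed 0 in comparisons with no member called, which say nothing of the stability of the calls. Over all genes, counts that moved by more than 1.5 times were those of TNF-α in Eahy926 (2706 to 819 with only the groups compared), IL-1β against TNF-α (1726 to 580 with all 5 controls), the TNF-α response difference (1396 to 856 with only the groups compared and 884 with all 5 controls), PDCD10 (996 to 537 with no filter and 4 with only the groups compared) and ITGB1BP1 (1089 to 1825 with only the groups compared), among comparisons with 100 calls or more. Leaving out 1 library at a time gave 380 to 1702 for CCM2 (1984 with both guides; 380 without guide 2), 9 to 2884 for PDCD10 (9 without guide 1, 2884 without guide 2, and 523, 545 and 417 without non-targeting replicate 1, 2 or 3) and 209 to 828 for ITGB1BP1 (209 without guide 1, 433 without guide 2 and 702 without non-targeting replicate 3).

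A replicate block, with the replicate number of the parental libraries as a term, gave the same number of members called in all 10 parental comparisons, for example 7 for IL-1β in TeloHAEC, 5 for TNF-α in TeloHAEC and 4 for TNF-α in Eahy926. The numbers did not pair the libraries: deviations of same-numbered libraries had a mean r of -0.0166 in TeloHAEC, with 2 of 18 pairs above 0.1, and 0.00137 in Eahy926, with 0 of 18, and 3 of 12 and 4 of 12 libraries correlated best with their own number. In the knockdowns no paired analysis was possible because the guides of a target share no number with other groups.

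TPM keep no depth, so differences of genes near 0, such as JAM2 and OCLN, carry no counting interval. With 2 guides a target, and 1 of them without effect on MAP2K5 and NFAT5, the group differences of these targets average a reduced and an unreduced library.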
